A study of Rattus norvegicus and Mus musculus with 14 samples.

Results

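The genes described here are Dpysl5, Dscam, Ntm and Sez6, which encode proteins of the neuronal growth cone and of neuronal cell adhesion. They were taken as every probe whose only gene symbol in the platform annotation is one of these names, which gave 4 probes, 1 for each gene, out of 342 genes named by 384 of the 1152 probes on the array. The genes were grouped by role with earlier results of these arrays known. The low Dpysl5 values under NMDA were among those results, so the values below are a description and no p-value is attached to any of the 4 genes. Each gene rests on 1 cDNA probe, so no second probe was at hand to check its identity.

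A growth cone is the motile tip of an extending axon or dendrite, which reads guidance cues through receptors on its surface and passes them to its actin and microtubule skeleton. Adhesion proteins of the immunoglobulin superfamily sort neurites, space cell bodies and hold growth cones to their paths and to synaptic partners. In the cerebral cortex such genes are known chiefly from embryonic and early postnatal development, and many stay expressed in the adult.

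The series measured transcript abundance on cDNA arrays, 12 of them from cultures of embryonic rat cortical neurons and 2 from samples of adult mouse cortex. In the MEK set the cultures received NMDA with PD98059 (an inhibitor of MEK, the kinase upstream of ERK), NMDA alone (which activates glutamate receptors of the NMDA type), or the control solution that the labels name CSS. In the NOS set they received NMDA with nitroarginine (an inhibitor of nitric oxide synthase), NMDA alone, or CSS. Each set was run as experiments 1 and 2 with 1 array per treatment, so each rat group has n = 2 arrays. The mouse samples are brain cortex of 1 nNOS knockout (lacking neuronal nitric oxide synthase) and of 1 wild-type littermate, both adult and labelled c57bl, with 1 array each. Dose, duration of exposure, age in culture and rat strain are not given in the sources used here, nor is it stated that each array had its own culture. SDs and standard errors therefore measure the spread between arrays, which may be technical.

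The deposited values are Z-scores within each array. A level of 1 Z unit lies about 1 SD above the mean of all probes on that array, and a difference in Z units is not a fold change. Because every array is centred, a change common to all probes cannot be seen. The levels belong to whole cultures or tissue, in which fewer cells of a type and less RNA per cell cannot be told apart. Of the neuronal marker list, 3 of 10 genes had probes (Nefl, Stmn2 and Uchl1, 4 probes), and the mean rank of these probes lay at percentile 40.1 to 64.1 of the array in the MEK set, 40.9 to 58.5 in the NOS set and 50.9 to 55.1 in mouse cortex. The astrocyte list had 1 gene of 7 (Gfap, 2 probes), at 25.8 to 28 in the MEK set, 35.7 to 64.2 in the NOS set and 13.7 to 14.1 in cortex. Oligodendrocyte and endothelial lists had 0 genes on the array. The microglial list had Csf1r alone (1 probe), at 58.9 to 65.9 in the MEK set, 59.1 to 90 in the NOS set and 77.8 to 83.5 in cortex. With values relative to other probes, these ranks cannot show whether a cell type was present.

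Some arrays stood apart. The column of the MEK set control of experiment 1 was 1 row off its probes, with r = 0.103 against the median of the 13 other arrays as deposited and 0.823 when moved down by 1 row, and it is used here as moved. Across probes, the 5 remaining MEK set arrays had r of 0.971 to 0.995 among themselves, but 0.858 to 0.868 with the moved column. In the NOS set, r was 0.989 to 0.991 within experiment 1 and 0.894 to 0.937 within experiment 2, but 0.454 to 0.617 between the experiments. Differences are therefore given for each experiment on its own. Group means and fitted differences pool both experiments of a set and include these 4 arrays, unless an array is said to be left out. In limma fits over all 12 rat arrays, no comparison called a probe at an adjusted p under 0.05. The share called was 0% of 1152 probes for NMDA against control in the MEK set, in the NOS set and over both, for the difference between the sets, and for PD98059 and nitroarginine against NMDA alone. In these 6 comparisons 16, 2, 11, 4, 0 and 1 probes had an unadjusted p under 0.05, in that order, or 1.39%, 0.174%, 0.955%, 0.347%, 0% and 0.0868%. These limma fits left out the pairing of arrays by experiment. With experiment as a block the counts were 166, 57, 128, 99, 5 and 42 in the same order, again with 0 probes called. The low counts without the block therefore do not show that NMDA or an inhibitor had no effect.

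Where the rat genes lie was taken from RefSeq on build GRCr8. Dpysl5 is on chromosome 6 from 31295035 to 31379348, Dscam on chromosome 11 from 49391385 to 49976861, Sez6 on chromosome 10 from 63317065 to 63366733, and Ntm on chromosome 8 from 35634929 to 36625081. Promoter sequences were held for 3 of the 4 genes. Those of Dpysl5 and Dscam are printed as the 250 bases before the start given in the RefSeq promoter table. They run 5′ to 3′ on the coding strand, which is the minus strand for both. Among the 4 genes Dpysl5 had the largest fitted NMDA difference over both sets and the largest knockout difference. Dscam was taken because its level followed that of Sez6 over the 12 rat arrays, with r = 0.988 after each experiment's mean was taken out. Over the 6 arrays of MEK experiment 2 and NOS experiment 1 that r was 0.656. The Dpysl5 window lies just outside the gene's span. The Dscam window lies inside it, since the start in that table is not at the outer end of the gene. Capitals mark matches on either strand to the GC box GGGCGG and to the CCAAT box CCAAT. The CRE half-site TGACG and the AP-1 site TGANTCA were searched for as well.
Dpysl5, chr6:31379349-31379598: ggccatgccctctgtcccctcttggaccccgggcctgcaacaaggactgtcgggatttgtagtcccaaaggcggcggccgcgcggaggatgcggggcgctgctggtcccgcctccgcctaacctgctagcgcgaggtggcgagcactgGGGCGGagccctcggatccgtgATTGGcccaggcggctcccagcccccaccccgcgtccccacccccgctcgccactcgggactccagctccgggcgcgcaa
Dscam, chr11:49976516-49976765: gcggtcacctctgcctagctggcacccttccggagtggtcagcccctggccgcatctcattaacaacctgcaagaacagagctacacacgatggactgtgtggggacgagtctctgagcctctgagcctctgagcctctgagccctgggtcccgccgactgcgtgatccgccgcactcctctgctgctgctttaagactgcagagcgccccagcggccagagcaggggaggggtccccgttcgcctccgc
The Dpysl5 window was 72.8% G and C and the Dscam window 64.8%, where the median of 33469 RefSeq promoters was 51.2%. The Dpysl5 window held 1 GC box match and 1 CCAAT box match, which do not overlap, and the Dscam window held 0 matches to any of the 4 motifs. Of all promoters, 30.5% held the GC box, 34% the CCAAT box, 18.2% the CRE half-site and 6.34% the AP-1 site. The CRE half-site and the AP-1 site had no match in either window. These are descriptions of letters in a window and say nothing of binding.

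Dpysl5 encodes a cytosolic member of the collapsin response mediator family (CRMP5), whose relatives link semaphorin and other guidance signals to microtubules in the growth cone. In the MEK set its level was -0.37 and -0.51 Z units with PD98059 and NMDA in experiments 1 and 2, -0.59 and -0.35 with NMDA alone, and -0.40 and 0.40 in control. The control of experiment 2 was the high array, the control of experiment 1 lay among the treated arrays, and NMDA and control overlapped. In the NOS set its level was 0.22 and 0.68 Z units with nitroarginine and NMDA, 0.31 and 0.47 with NMDA alone, and 0.72 and 0.39 in control. There the control of experiment 1 and the nitroarginine array of experiment 2 were the high arrays, and the groups overlapped. In mouse cortex its level was -0.10 Z units in the nNOS knockout and 0.53 in the wild type.

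NMDA minus control differences of Dpysl5 were -0.19 and -0.75 Z units in MEK experiments 1 and 2 and -0.41 and 0.08 in NOS experiments 1 and 2, so the level was lower under NMDA in 3 of 4 experiments. Of 1151 probes with a value in all 4 experiments, 26.8% were lower in exactly 3 and 4.6% in 4. In NOS experiment 1, whose arrays were closely alike, the Dpysl5 difference was the lowest of all 1152 probes, against a 5th percentile of -0.19. In MEK experiment 2 it ranked 13 from the low end of 1152 probes, where the 5th percentile was -0.47. In MEK experiment 1, the pair with the moved column, 34.6% of probes were at or below the Dpysl5 difference, and in NOS experiment 2 the difference ranked 575 from the high end of 1152 probes.

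**Figure D1:**
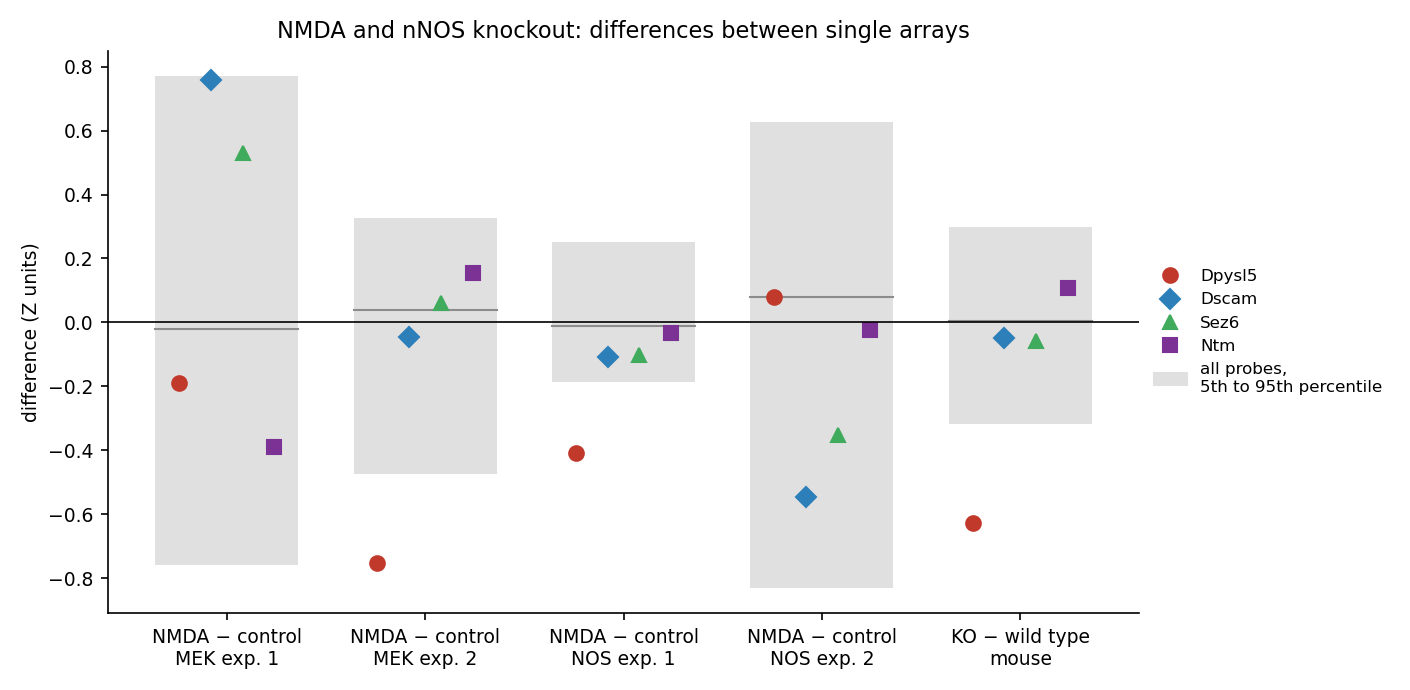
Differences between single arrays in Z units (y axis) for NMDA minus control in each of the 4 rat experiments and for nNOS knockout minus wild type in mouse cortex (x axis), with a symbol for each gene. Grey boxes span the 5th to 95th percentile of all probes and grey lines mark their medians. Dpysl5 lies below the box in MEK experiment 2 (-0.75), NOS experiment 1 (-0.41) and the knockout (-0.63), and within it in MEK experiment 1 and NOS experiment 2.

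Fitted over the groups, the NMDA minus control difference of Dpysl5 was -0.47 Z units in the MEK set (SE 0.31, limma), -0.16 in the NOS set (SE 0.31) and -0.32 over both sets (SE 0.22, n = 4 arrays each). None was as large as 2 standard errors. The difference between the sets, NOS minus MEK, was 0.31 Z units (SE 0.44). Leaving out the moved array, with experiment as a block, gave -0.85 in the MEK set (SE 0.25) and -0.51 over both sets (SE 0.16). Leaving out NOS experiment 2 gave -0.41 in the NOS set (SE 0.38), since the difference there then rests on experiment 1 alone. Leaving out the moved array and NOS experiment 2 together, a setting added after the values were seen, gave -0.87 in the MEK set, a description like the other values of this gene. In that setting limma called 82 probes in the MEK set, 7.12% of 1152. The MEK set control and every NOS group are then 1 array. The spread within groups comes only from the NMDA and PD98059 arrays of the MEK set.

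In the knockout cortex minus the wild type, Dpysl5 differed by -0.63 Z units, the 8th lowest of 1152 probes. The other 3 genes lay between -0.06 and 0.11, but Ntm stood at 0.34 when a running median over 25 probes along the row order was subtracted. With 1 array per genotype the Dpysl5 difference has no replicate check. On the scale of ranks within an array, Dpysl5 stood at percentile 47.7 in the knockout and 68.4 in the wild type, at 37.8 under NMDA and 57.2 in control of MEK experiment 2, and at 60.0 under NMDA and 72.6 in control of NOS experiment 1. It stood at 31.5 under NMDA and 33.6 in control of MEK experiment 1, and at 71.0 and 74.4 in NOS experiment 2. In NOS experiment 2 the rank was thus lower under NMDA although the difference in Z units was 0.08, so the sign there depends on the scale.

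With each inhibitor the Dpysl5 difference from NMDA alone changed sign between experiments. PD98059 with NMDA minus NMDA alone was 0.22 Z units in MEK experiment 1 and -0.16 in experiment 2, with a fitted difference of 0.03 (SE 0.31). Nitroarginine with NMDA minus NMDA alone was -0.08 in NOS experiment 1 and 0.21 in experiment 2, with a fitted difference of 0.06 (SE 0.31). In MEK experiment 2 and NOS experiment 1 the inhibitor array stayed on the side of NMDA, with levels of -0.51 and 0.22 Z units against 0.40 and 0.72 in the controls of the same experiments. The other experiments went the other way. In MEK experiment 1 PD98059 stood at -0.37, above control (-0.40) and NMDA alone (-0.59). In NOS experiment 2 nitroarginine stood at 0.68, above control (0.39) and NMDA alone (0.47). The inhibitor differences share their NMDA arrays with the NMDA minus control differences.

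From low to high, the group means of Dpysl5 were -0.47 Z units for NMDA in the MEK set, -0.44 for PD98059, 0.001 for MEK set control, 0.39 for NMDA in the NOS set, 0.45 for nitroarginine and 0.55 for NOS set control. In both sets the control stood highest. The SDs (n = 2 each) were 0.17, 0.10, 0.57, 0.12, 0.33 and 0.23 in the same order. The gaps between neighbours ran from 0.03 to 0.44 Z units, and each was smaller than the larger SD of the groups it separates.

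**Figure D2:**
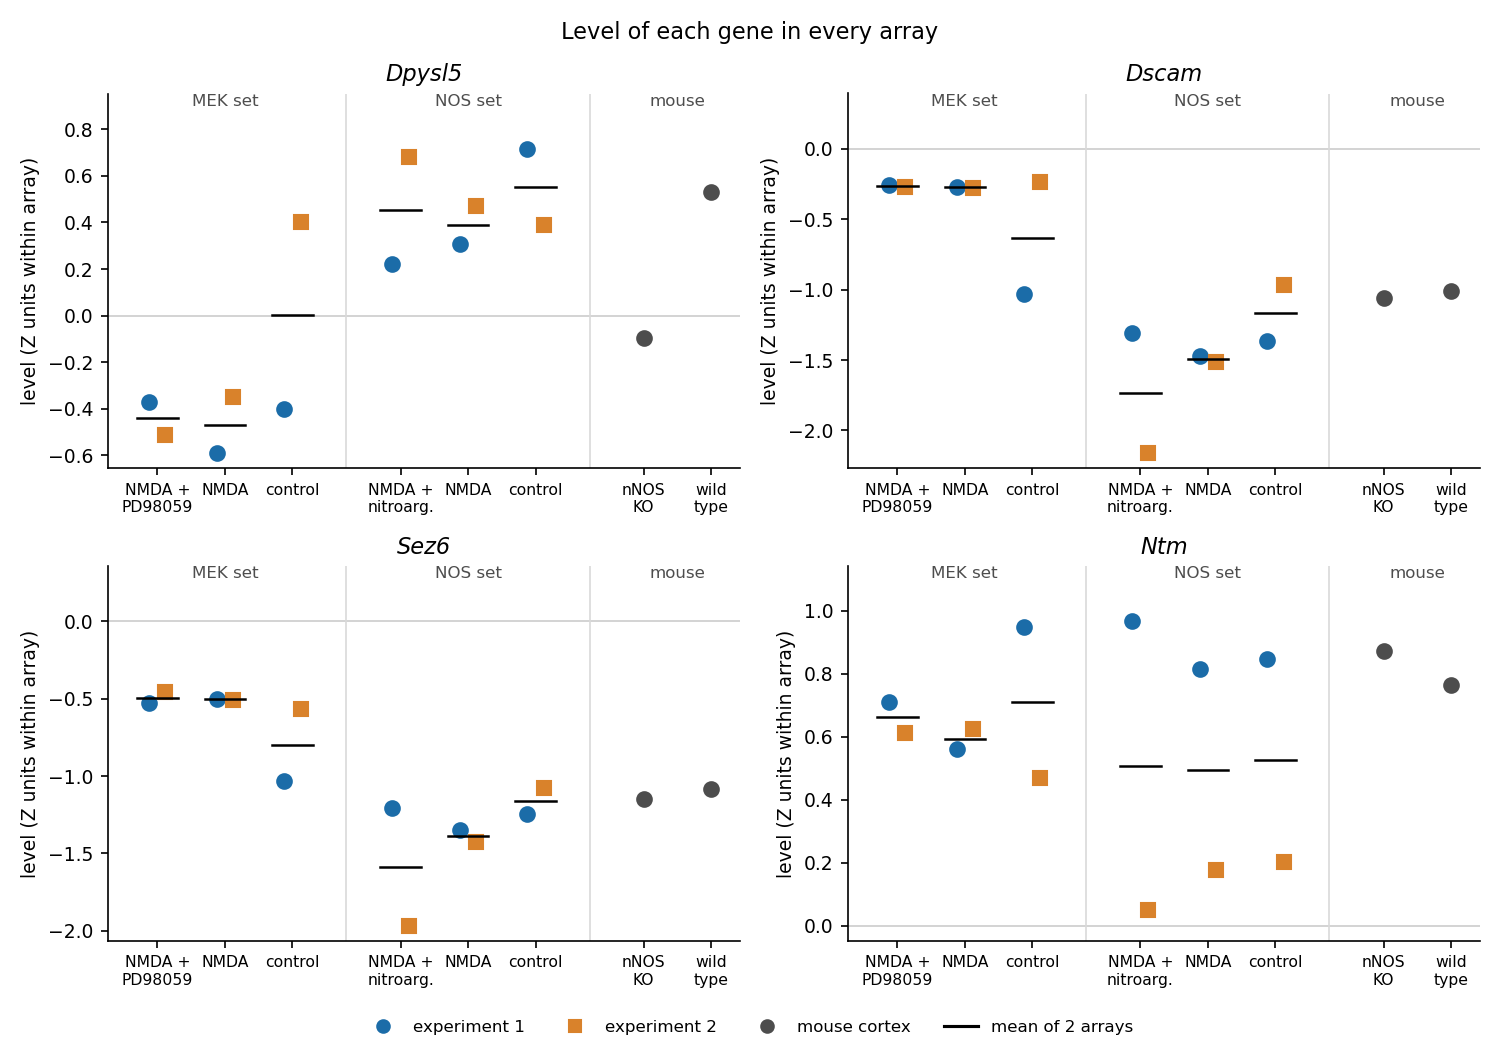
Level in Z units within the array (y axis) of Dpysl5, Dscam, Sez6 and Ntm in all 14 arrays, by treatment and set or by mouse genotype (x axis). Circles are experiment 1, squares experiment 2, grey circles the mouse arrays, and bars the mean of 2 arrays. Dpysl5 is highest in control of MEK experiment 2 within its set (0.40) and lower in the knockout (-0.10) than in the wild type (0.53), while Dscam and Sez6 show nearly the same pattern as each other.

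Dscam encodes a large immunoglobulin-superfamily adhesion receptor, the Down syndrome cell adhesion molecule, known for self-avoidance and spacing of neurites and for guidance as a netrin receptor. Its level in the MEK set was -0.26 and -0.27 Z units with PD98059 and NMDA, -0.27 and -0.28 with NMDA alone, and -1.03 and -0.23 in control. All MEK set arrays but 1 lay within 0.05 Z units of each other, and the exception was the moved control of experiment 1. In the NOS set its level was -1.31 and -2.16 Z units with nitroarginine and NMDA, -1.47 and -1.52 with NMDA alone, and -1.37 and -0.97 in control. There NMDA lay below control without overlap, as did 4.6% of all 1152 probes, while 5.73% lay above it. Mouse cortex had -1.06 Z units in the knockout and -1.01 in the wild type.

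NMDA minus control differences of Dscam were 0.76 and -0.05 Z units in MEK experiments 1 and 2 and -0.11 and -0.55 in NOS experiments 1 and 2. Only the first, which rests on the moved column, was positive, and 5.39% of probes in that pair were as high or higher. The fitted difference was 0.36 Z units in the MEK set (SE 0.35), -0.33 in the NOS set (SE 0.35) and 0.01 over both (SE 0.25). Without the moved column and NOS experiment 2 it was -0.04 in the MEK set and -0.11 in the NOS set. The MEK set control and every NOS group are then a single array, so no SE is given.

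Under PD98059 with NMDA, Dscam differed from NMDA alone by 0.01 and 0.01 Z units in experiments 1 and 2. The PD98059 arrays lay above the NMDA arrays without overlap, as did 14.3% of probes, with 8.94% below, and the fitted difference was 0.01 (SE 0.35). Under nitroarginine with NMDA the differences from NMDA alone were 0.17 in NOS experiment 1 and -0.64 in experiment 2, of opposite sign. The second was among the lowest 2.78% of probes in that pair, and the fitted difference was -0.24 (SE 0.35).

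Sez6 encodes a transmembrane protein of neurons, the seizure-related 6 homolog, known in mouse for dendritic branching and for the balance of excitatory synapses. Its level in the MEK set was -0.53 and -0.46 Z units with PD98059 and NMDA, -0.50 and -0.51 with NMDA alone, and -1.03 and -0.57 in control. NMDA lay above control without overlap, as did 24.4% of 1151 probes, while 20% lay below it, and again the moved control was the array far from the rest. In the NOS set its level was -1.20 and -1.97 Z units with nitroarginine and NMDA, -1.35 and -1.42 with NMDA alone, and -1.25 and -1.07 in control. NMDA lay below control without overlap, as for Dscam and for 4.6% of 1152 probes in all, while 5.73% lay above it. Nitroarginine of experiment 2 was the lowest array. In mouse cortex Sez6 had -1.14 Z units in the knockout and -1.09 in the wild type.

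NMDA minus control differences of Sez6 were 0.53 and 0.06 Z units in MEK experiments 1 and 2 and -0.10 and -0.35 in NOS experiments 1 and 2. The sign thus differed between the sets in both experiments of each, as in 12% of 1151 probes. The fitted difference was 0.30 in the MEK set (SE 0.29), -0.23 in the NOS set (SE 0.29) and 0.03 over both (SE 0.20), and NOS minus MEK was -0.52 (SE 0.41). Without the moved array and NOS experiment 2, NOS minus MEK was -0.17. The MEK set control and every NOS group are then a single array, so no SE is given. PD98059 with NMDA minus NMDA alone was -0.03 and 0.05 Z units, and nitroarginine with NMDA minus NMDA alone was 0.15 and -0.54, with signs that differed between experiments for both inhibitors.

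Dscam and Sez6 moved together from array to array. After the mean of each experiment was taken out, their levels had r = 0.988 over the 12 rat arrays, and for each of them the other was the most similar of 382 named probes. Those 12 values share 4 experiments, and they include the arrays that stand apart. Without NOS experiment 2 r was 0.973 over 9 arrays, with Sez6 then 12th among the probes most similar to Dscam, and over the 6 arrays of MEK experiment 2 and NOS experiment 1 it was 0.656, with Sez6 38th of 383. Their probes are rows 884 and 881 of the table, 3 rows apart. With a running median over 25 probes along the row order subtracted, nitroarginine with NMDA minus NMDA alone was 0.16 for Dscam and 0.07 for Sez6, against -0.24 and -0.20 without that step. The same step made the NMDA minus control difference in the NOS set -0.68 for Dscam and -0.44 for Sez6, against -0.33 and -0.23 without it. NOS minus MEK became -1.12 for Dscam and -0.80 for Sez6, against -0.69 and -0.52.

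**Figure D3:**
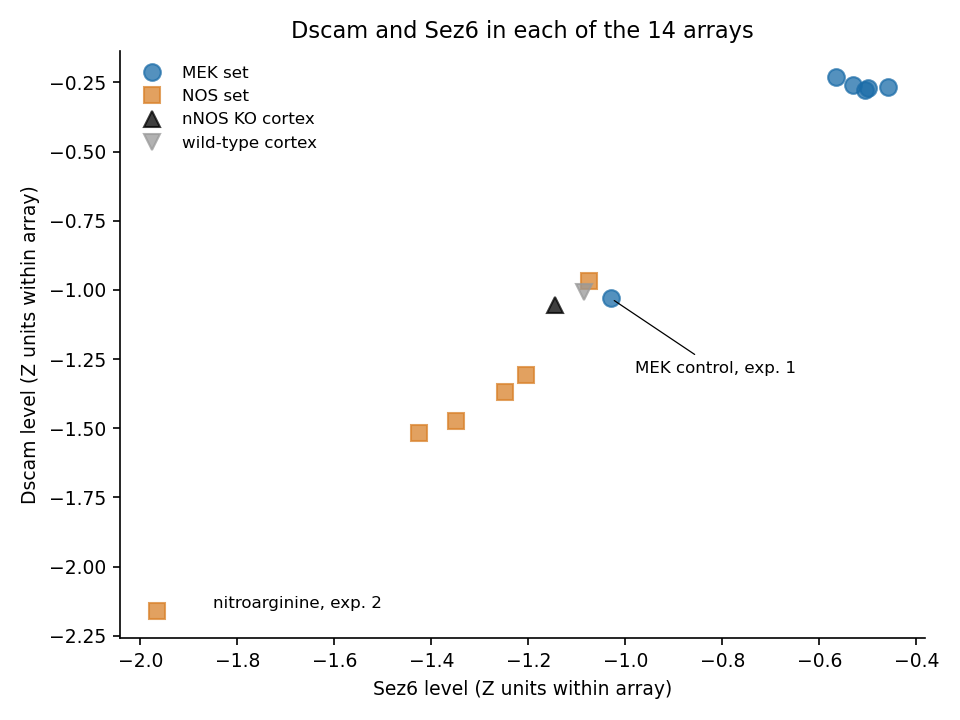
Dscam level (y axis) against Sez6 level (x axis), both in Z units within the array, with 1 point for each of the 14 arrays. Of the MEK set arrays (circles), 5 group near -0.5 for Sez6 and the moved control of experiment 1 lies at -1.03 for both genes, among the mouse and NOS set arrays, while nitroarginine of NOS experiment 2 is lowest for both (-1.97 and -2.16).

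The level of both genes differed between the sets. Over 6 arrays each, Dscam averaged -1.47 ± 0.39 Z units in the NOS set and -0.39 ± 0.31 in the MEK set (SD), and Sez6 averaged -1.38 ± 0.31 and -0.60 ± 0.22 (SD) in the NOS and MEK sets. Sez6 was lower in all 6 NOS set arrays than in any MEK set array, as were 11.9% of 1151 probes, with 14.9% higher. Dscam was lower without overlap when the moved control was left out, as were 14.2% of 1152 probes, with 23.9% higher. For Dpysl5 the means were 0.46 ± 0.20 in the NOS set and -0.30 ± 0.36 in the MEK set (SD, 6 arrays each), the opposite direction, with overlap. Set, batch of cultures and array processing cannot be told apart in this design.

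In order of group means from low to high, Dscam had nitroarginine (-1.73 Z units), NMDA in the NOS set (-1.5), NOS set control (-1.17), MEK set control (-0.63), NMDA in the MEK set (-0.27) and PD98059 (-0.26). Sez6 had the same order, with -1.58, -1.39, -1.16, -0.80, -0.50 and -0.49. For Dscam the gap of 0.33 between NMDA and control of the NOS set exceeded both SDs (0.03 and 0.28, n = 2 each), and so did the corresponding gap of 0.23 for Sez6 (0.05 and 0.12). Both gaps rest largely on NOS experiment 2, without which the differences were -0.11 for Dscam and -0.10 for Sez6, and the nitroarginine means hold the low array of that experiment. The gap between control of the NOS set and of the MEK set also exceeded both SDs for Sez6, at 0.36 against 0.12 and 0.33. The gap of 0.01 between PD98059 and NMDA for Dscam exceeded its SDs too (0.006 and 0.005). At the other neighbours the gap was smaller than the larger SD.

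Ntm encodes neurotrimin, a GPI-anchored immunoglobulin-superfamily adhesion protein of the IgLON family that modulates neurite outgrowth and adhesion. Its level in the MEK set was 0.71 and 0.61 Z units with PD98059 and NMDA, 0.56 and 0.63 with NMDA alone, and 0.95 and 0.47 in control. The controls were the highest and the lowest arrays of the set, so every treated array lay between them. In the NOS set it was 0.97 and 0.05 with nitroarginine and NMDA, 0.82 and 0.18 with NMDA alone, and 0.85 and 0.20 in control. Here the levels split by experiment, with all arrays of experiment 1 above 0.8 and all of experiment 2 between 0.05 and 0.20. The share of probes that split this way was not counted. Over all probes r between these experiments was only 0.454 to 0.617, so the split is not shown to be particular to Ntm. Mouse cortex had 0.87 in the knockout and 0.76 in the wild type.

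NMDA minus control differences of Ntm were -0.39 and 0.16 Z units in MEK experiments 1 and 2 and -0.03 and -0.02 in NOS experiments 1 and 2. The fitted difference was -0.12 in the MEK set (SE 0.38), -0.03 in the NOS set (SE 0.38) and -0.07 over both (SE 0.27). PD98059 with NMDA minus NMDA alone was 0.15 and -0.01, and nitroarginine with NMDA minus NMDA alone was 0.15 and -0.13. Its range over the 3 treatments was 0.39, 0.16, 0.15 and 0.15 Z units in MEK experiments 1 and 2 and NOS experiments 1 and 2, where the median probe had 0.35, 0.18, 0.14 and 0.42. Ntm was thus close to or under the median probe in each experiment. From low to high its group means were 0.50 Z units for NMDA in the NOS set, 0.51 for nitroarginine, 0.52 for NOS set control, 0.59 for NMDA in the MEK set, 0.66 for PD98059 and 0.71 for MEK set control. Their SDs (n = 2 each) were 0.45, 0.65, 0.46, 0.05, 0.07 and 0.34 in the same order. The gap of 0.0691 between PD98059 and NMDA of the MEK set just exceeded both SDs (0.0683 and 0.0461), and the other gaps were smaller than the larger SD.

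The same range differed between the genes. For Dpysl5 it was 0.22 and 0.91 Z units in MEK experiments 1 and 2 and 0.49 and 0.29 in NOS experiments 1 and 2. In MEK experiment 2, 0.347% of probes had a range at least as wide, and in NOS experiment 1 0.608% had, so Dpysl5 had a wide range in both experiments that hold no array standing apart. In each of them the control was the highest array, so these ranges are not separate from the low NMDA values already described. In MEK experiment 1 and NOS experiment 2, 69.3% and 69.7% of probes had a range at least as wide, so Dpysl5 lay under the median probe there. For Dscam the range was 0.77, 0.05, 0.17 and 1.19, and for Sez6 0.53, 0.11, 0.15 and 0.89. Both genes exceeded 1.5 times the median probe's range only in MEK experiment 1 and NOS experiment 2, which hold the arrays that stand apart.

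**Figure D4:**
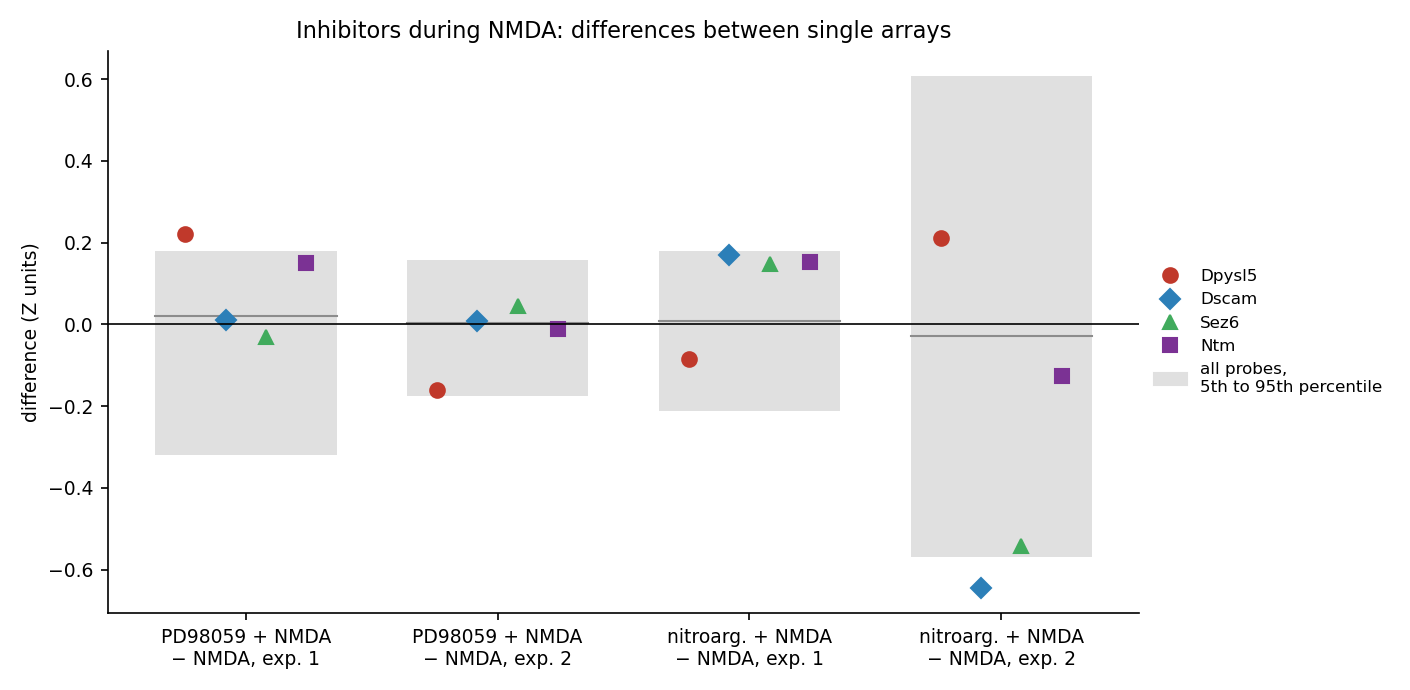
Differences between single arrays in Z units (y axis) for PD98059 with NMDA minus NMDA alone in MEK experiments 1 and 2 and for nitroarginine with NMDA minus NMDA alone in NOS experiments 1 and 2 (x axis), with a symbol for each gene. Grey boxes span the 5th to 95th percentile of all probes and grey lines mark their medians. Dpysl5 is at 0.22, above the box, and -0.16 with PD98059, and Dscam at -0.64 lies below the box with nitroarginine in NOS experiment 2.

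A size of 0.5 Z units between single arrays, a limit chosen after the values were seen, was passed by few of the 4 genes. Under NMDA against control, Dscam and Sez6 were higher in MEK experiment 1, where 12.5% of probes were higher and 13.4% lower by that much. Dpysl5 was lower in MEK experiment 2 (4.43% of probes lower, 0.608% higher). None of the 4 genes passed in NOS experiment 1 (0% lower, 0.26% higher), and Dscam was lower in NOS experiment 2 (14.1% lower, 11.2% higher). In the knockout against the wild type Dpysl5 was lower (1.56% lower, 0.781% higher). With PD98059 against NMDA alone none of the 4 passed, where 2% of probes were lower and 0.0868% higher in experiment 1, and 0.26% lower and 0% higher in experiment 2. With nitroarginine none of the 4 passed in experiment 1 (0.26% lower, 0% higher), and Dscam and Sez6 were lower in experiment 2 (6.77% lower, 8.16% higher). Over both NOS experiments all 4 genes overlapped between nitroarginine and NMDA alone, where 5.56% of probes lay lower and 3.56% higher without overlap.

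Genes with patterns most like these were named by the Pearson r over the 12 rat arrays after the mean of each experiment was removed. The arrays share 4 experiments and no p-value was computed. For Dpysl5 these were a probe of Cand1 (r = 0.867), Slc25a16 (0.847) and Septin4 (0.779), and without NOS experiment 2 Septin4 (0.968), Slc25a16 (0.95) and Smpd3 (0.912). For Dscam they were Sez6 (0.988), Bcat1 (0.934) and Rfc1 (0.929), and without NOS experiment 2 Cct5 (0.99), Ncald (0.986) and Zwint (0.984). For Sez6 they were Dscam (0.988), Mcrs1 (0.952) and Acta2 (0.932), and then Klhl23 (0.99), Tubb5 (0.984) and a probe of Actb (0.983). For Ntm they were Glul (0.881), Eef1a1 (0.851) and Odc1 (0.85), and then Kitlg (0.975), Prr12 (0.967) and Son (0.964). Septin4 and Slc25a16 were in the nearest 3 of Dpysl5 both ways, and none of the 3 nearest of Dscam, Sez6 or Ntm was named both ways. The 9 arrays without NOS experiment 2 still hold the moved MEK set control. In it Dscam and Sez6 (both -1.03) lay far from their other MEK set arrays. Between these genes r was 0.973 over the 9 arrays and 0.656 over the 6 arrays without MEK experiment 1 as well.

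Other growth cone, guidance and adhesion genes were scarce on the array. Of 108 listed genes in 6 groups, 3 had a probe, and 0 of these 3 passed the threshold in either direction in any of the 6 limma comparisons. As 0% of all 1152 probes passed in each comparison, that count says nothing of these 3 genes in particular. The collapsin response mediators other than Dpysl5, the cadherins and the guidance ligands and receptors had 0 genes. Stmn2, a microtubule-destabilising protein of growth cones, had NMDA minus control differences of 0.32 and -0.15 Z units in MEK experiments 1 and 2 and 0.12 and 0.70 in NOS experiments 1 and 2. It was lower under NMDA in 1 of 4 experiments, as were 23.4% of 1151 probes. Bsg, an immunoglobulin-superfamily protein that partners monocarboxylate transporters, had 0.61, 0.12, 0.03 and -0.07 in the same order. Nlgn2, a postsynaptic adhesion protein of inhibitory synapses, had 0.35, 0.09, -0.02 and -0.15. In the knockout minus wild-type comparison Stmn2 was at 0.002, Bsg at 0.16 and Nlgn2 at -0.15 Z units.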

How the data were processed

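The values of 12 arrays of rat cultures and 2 arrays of mouse cortex were analysed. The deposited values are scores. Columns have a mean of 0 (-0.0001 in 1) and SDs of 0.857 to 0.999, from which they were taken to be Z-scores. How the authors made them, and the scale before, are not given in the sources used here. Direction was taken as that of brightness. Groups and experiment numbers came from titles. The MEK set control column of experiment 1 was moved down by 1 row. Limma 3.58.1 (R 4.3.3) fitted 6 group means to 12 arrays (6 residual degrees of freedom, two-sided, Benjamini-Hochberg over 1152 probes, threshold 0.05), and was tested on simulated data. The test had been designed for log values or scores and was run as designed. Mouse arrays stayed out of the fit. Probe names came from the platform annotation, which is old. Of 1152 probes, 384 had 1 symbol, 6 several and 762 none. Of the 384, 362 matched the rat RefSeq table by gene ID, all 4 genes described here among them.

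The labels' experiment numbers pair the arrays. Deviations of same-numbered arrays from their group means had r of 0.874 to 0.93 for the NOS arrays and -0.145 to 0.0726 for the MEK arrays. The fit without the block stayed the main one. Its SEs for NMDA minus control within a set were 0.31 for Dpysl5, 0.35 for Dscam, 0.29 for Sez6 and 0.38 for Ntm. With experiment as a block over all 12 arrays they were 0.24, 0.29, 0.22 and 0.17, with the same differences. Genes named were the 4 members, the 3 most similar named probes of each, and the listed pathway genes with a probe. Members and lists were chosen with earlier results of these data known. Ranks and percentiles over probes describe single pairs of arrays. Other steps used Python 3.11.15, numpy 2.4.6, pandas 2.3.3 and matplotlib 3.10.9.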

Additional observations from a re-analysis of the deposited data

Results flagged for a closer look

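Sez6 was picked out because its NMDA minus control difference was above 0 in both MEK experiments (0.53 and 0.06 Z units) and below 0 in both NOS experiments (-0.10 and -0.35). The fitted difference, NOS minus MEK, was -0.522 Z units (SE 0.41, limma), and 12% of probes had opposite signs in the same way. The 0.53 rests on the moved control column and the -0.35 on NOS experiment 2. No p-value is given, since the gene was chosen with results known.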

How the results depend on the processing

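Limma called 0 probes in all 6 comparisons under quantile normalization, median centring, division by the SD, trend and robust moderation, removal of a running median over 25 probes, the brighter probes alone, the column as deposited, and NOS experiment 2 left out. With experiment as a replicate block it also called 0, with 166 probes at an unadjusted p under 0.05 for NMDA in the MEK set, and the block changed no other call. Leaving out each of the 12 arrays in turn gave 0 to 1 calls for NMDA against control in the MEK set, over both sets and for NOS minus MEK. The 1 call, without MEK control replicate 2, is an unnamed probe at -7.38 in the moved column. With NOS experiment 2 and the moved array left out, added after seeing the data, it called 82 for NMDA in the MEK set (7.12% of 1152 probes), 75 lower and 7 higher. The other added setting, NOS experiment 2 left out with the block, called 0. The MEK control without the moved array is a lone array whose spread is borrowed from the remaining groups. With NOS experiment 2 left out as well, every NOS group is a lone array too. The spread within groups then comes only from the NMDA and PD98059 arrays of the MEK set. The Dpysl5 difference kept its sign in 23 of 23 settings in the MEK set (-0.87 to -0.07), the NOS set (-0.41 to -0.002) and over both (-0.64 to -0.12). Many of the 23 could not move the difference of a set at all. These were the block, the moderation, and leaving out an inhibitor array or arrays of the other set. The count of 23 therefore says little of how firm the sign is. The values nearest 0 are those without 1 control array of the set. For Dscam the MEK set difference ran from -0.32 to 0.76, with the other sign in 4 of 23 settings, and for Sez6 from -0.31 to 0.53, with the other sign in 1. Both lowest values come from the column as deposited, without which the ranges were -0.05 to 0.76 and 0.06 to 0.53. The nNOS knockout had 27 probes past 0.5 Z units, and 27 to 30 in the 4 alternatives, with Dpysl5 at -0.74 to -0.63 and Ntm at 0.08 to 0.34. The scale before the Z-score, and so the signal over background behind each value, is unknown.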
